A study of Rattus norvegicus with 12 samples.

Results

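The genes described here are 35 that carry glutamate signalling: 4 AMPA, 7 NMDA and 5 kainate receptor subunits, the delta receptor Grid1, 7 metabotropic receptors, 7 transporters and 4 scaffold proteins (Homer1, Homer2, Homer3 and Dlg4). They were chosen by name, as the probes whose gene name or current symbol is on this list, and they account for 46 of 41012 probes and for 35 of the 14112 named genes tested. RNA was measured with 1-colour Agilent whole-genome arrays in tissue punched from the medulla of male rats of the inbred F344 strain, at the rostral ventrolateral medulla (RVLM). The groups were young (3 months), middle-aged (12 months) and aged (24 months) rats, with 3 animals each and no treatment. Replicate 3 of each group was hybridised to 2 arrays, so 12 arrays stand for 9 animals, and the study asked how expression in this region differs with age. A level is the log2 processed signal of a probe minus the 75th percentile of its array. Levels of different probes are not on a shared scale, so each gene is compared only with itself, except in the summed levels of marker lists.

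Glutamate is the main excitatory transmitter of the brainstem, and glutamatergic inputs drive the RVLM neurons that maintain sympathetic tone to heart and vessels. It is loaded into vesicles by the vesicular transporters (Slc17 family) and acts on ion channels assembled from AMPA, NMDA or kainate subunits and on G-protein-coupled metabotropic receptors. It is then cleared by plasma membrane transporters (Slc1 family), most of it by astrocytes. Scaffold proteins hold the receptors at the postsynaptic membrane.

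All 46 probes are 60-base oligonucleotides built on transcript records, with a GC content of 35% to 81.7% (median 45%). The array files give their positions on the rat build rn3, except for the probe of Gria1 and both probes of Homer1, which have none. Probes for the genes with the smallest p or the widest spread between animals follow, 5′ to 3′. Homer3 lies at chr16:19624628-19624687, Grin2d at chr1:96387613-96387672, Grik5 at chr1:80396124-80396183 and Grik1 at chr11:27734832-27734891, all on the minus strand, and Slc17a7 at chr1:95727218-95727277 on the plus strand. The files give each of these as an uninterrupted stretch of the genome, and they do not say which exon it is.
Homer3: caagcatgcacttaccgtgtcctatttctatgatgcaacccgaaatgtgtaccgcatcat
Grik5: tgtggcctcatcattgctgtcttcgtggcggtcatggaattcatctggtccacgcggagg
Grin2d: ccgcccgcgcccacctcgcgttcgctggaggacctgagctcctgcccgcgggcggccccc
Slc17a7: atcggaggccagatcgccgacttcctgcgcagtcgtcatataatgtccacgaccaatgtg
Grik1: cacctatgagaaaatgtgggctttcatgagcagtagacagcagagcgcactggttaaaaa

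Grm8 was measured by 2 probes on the minus strand, at chr4:54207890-54214387 and chr4:54207858-54214300. The 60 bases of each are spread over 6498 and 6443 bases of genome, so both cross at least 1 intron. They share a run of 18 bases, given in capitals, and are therefore not independent measurements of this receptor. The bases before the run differ between them, so they are not duplicates either. Which transcript forms each captures was not tested.
Grm8, brighter probe: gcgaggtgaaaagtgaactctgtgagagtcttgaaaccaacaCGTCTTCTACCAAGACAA
Grm8, other probe: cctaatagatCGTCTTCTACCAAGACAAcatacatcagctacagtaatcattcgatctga

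The receptor subunits are close relatives, and the probe of Gria1 and the dimmer probe of Gria4 show how close. Shifted by 8 bases against each other, they are identical at 36 of 52 aligned positions (69.2%), given in capitals. The longest unbroken run shared by probes of any 2 different members was 11 bases. Whether a probe also captures RNA of a related subunit was not tested.
Gria1: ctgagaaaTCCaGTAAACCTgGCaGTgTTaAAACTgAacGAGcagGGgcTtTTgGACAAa
Gria4, dimmer probe: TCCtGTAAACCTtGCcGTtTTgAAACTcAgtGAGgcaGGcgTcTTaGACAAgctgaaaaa

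The share of non-control spots well above background was 73.5% to 77.1% per array, with 0 saturated spots. The median difference between the 2 arrays of 1 animal was 0.058 to 0.063 log2 units, and between 2 animals of a group 0.103 to 0.156. Neuronal marker genes were present (all 12 tested, for example Snap25 and Rbfox3, well above background on all 12 arrays), as were the catecholamine genes Th and Dbh that mark C1 neurons of this region. Pnmt, which defines these neurons as adrenergic, was not analysed here. In a principal component analysis of all items the second component (21.7% of variance) set 1 animal of each age apart. Young replicate 2 stood at 24.35, middle-aged replicate 3 at 16.07 and aged replicate 3 at 26.48, against −19.0 to 3.51 in the other 6. The number of animals limits the precision.

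Of the 35 genes, 32 were well above background on all 12 arrays. Grik3 was so on 4, 4 and 3 of the 4 arrays of young, middle-aged and aged rats, Slc17a7 on 2, 4 and 2, and Slc17a8 on 4, 1 and 2. Slc17a7 thus passed the filter through the middle-aged group alone and Slc17a8 through the young group alone. All 35 genes passed it and were tested, each by its brighter probe where it had 2.

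None of the 35 genes passed the adjusted threshold in a comparison of ages, which does not show that their levels were equal. In aged against young rats 0 of 35 passed the limma test at an adjusted p under 0.05, where 2.04% of the 25445 items tested did so. In middle-aged against young rats 0 of 35 passed, against 0.2% of all items, and in aged against middle-aged rats 0 of 35, against 0.0118%. In the moderated F test over the 3 ages 0 of 35 passed, against 1.15% of all items. At these background shares a list of 35 genes would hold few calls, and the counts of 0 do not set the list apart from other genes.

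At an unadjusted limma p under 0.05 the members past the threshold were Homer3 and Grik5 in aged against young rats (2 of 35, against 15.2% of all items). Grm6 alone was past it in middle-aged against young rats (6.35% of all items), and Homer3 and Grin3b in aged against middle-aged rats (10.7%). In the F test Homer3 alone was past it (12.3%). The median difference over the 35 genes was −0.03 in aged minus young rats, against 0.03 over all items, 0.00 in middle-aged minus young rats, against 0.01, and −0.03 in aged minus middle-aged rats, against 0.02. In aged minus young rats 13 of the differences were positive and 22 negative, and 42.2% of all items were negative.

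How large a change the data could have missed differs by gene. The 95% limma interval of the aged minus young difference lay within 1.5-fold in either direction for 25 genes and within 2-fold for 32. To pass the adjusted threshold at its own standard error, the median gene would have needed a difference of 0.62 log2 units in aged against young rats. Slc17a7, at the other end, would have needed 5.68.

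**Figure D1:**
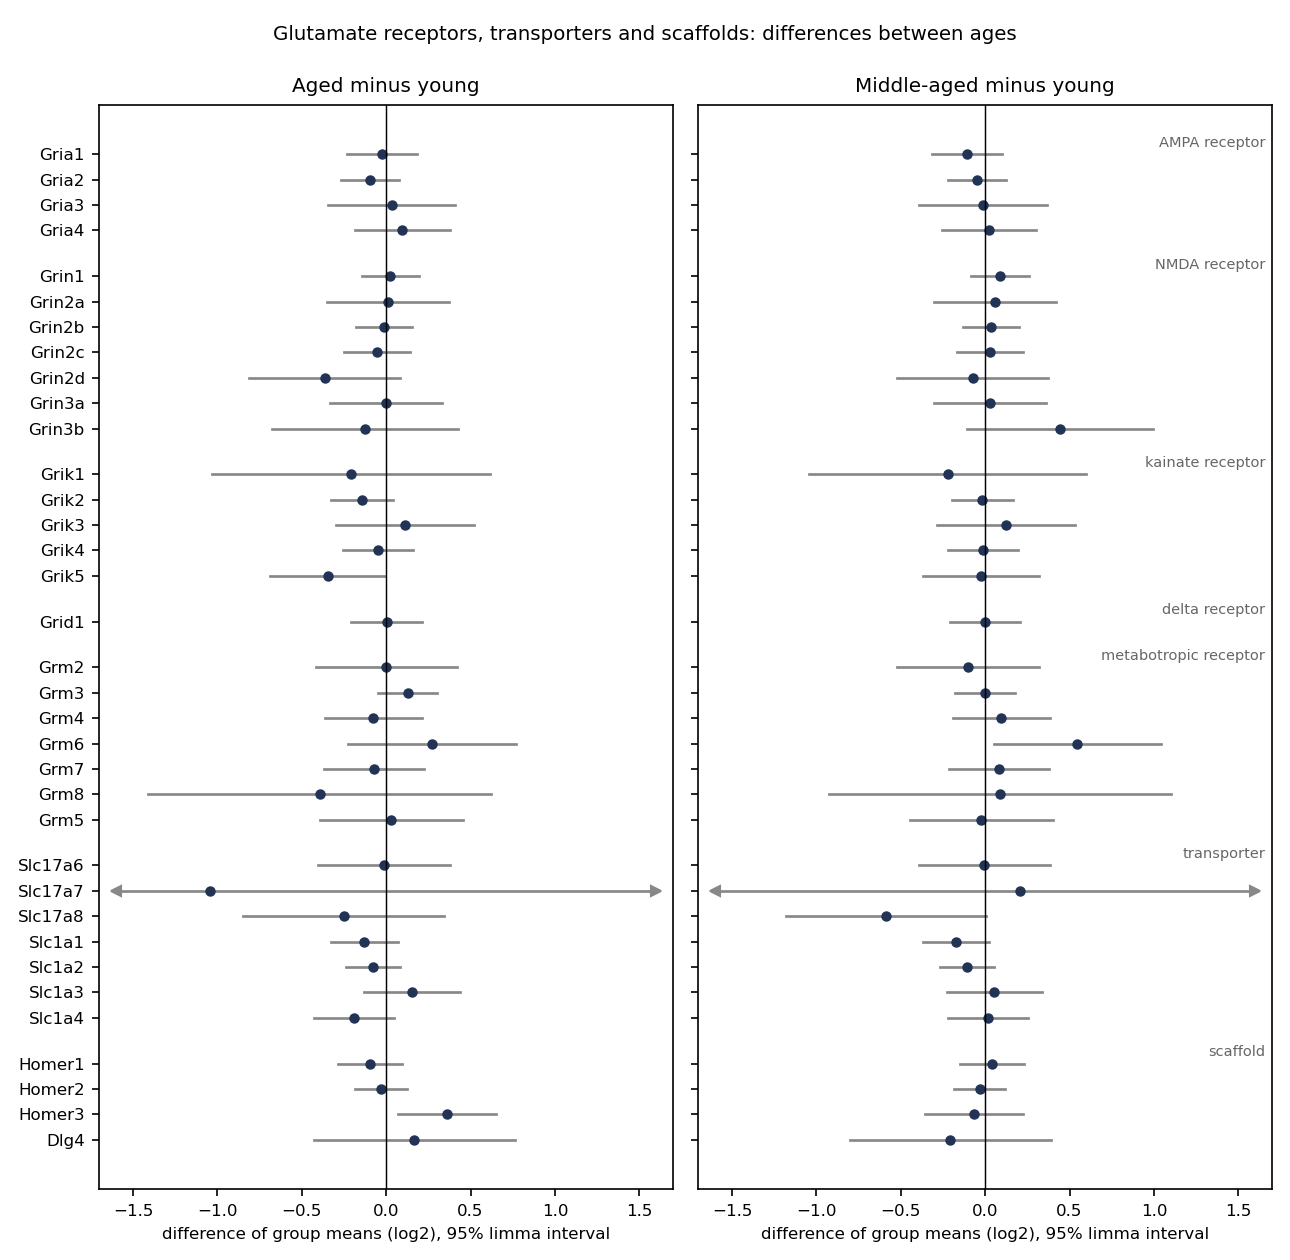
Differences of group means on the log2 scale with 95% limma intervals for the 35 genes, by class (n = 3 animals per group). Points are the aged minus young (left) and middle-aged minus young (right) differences, arrowheads mark intervals that run past the axis, and the widest interval is that of Slc17a7 (−3.70 to 1.62 on the left).

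The 4 AMPA receptor subunits (Gria1 to Gria4), which form the channel behind most fast excitatory transmission, had aged minus young differences of −0.10 to 0.10 and a median of 0.00. All 4 intervals lay within 1.5-fold. Gria2, the subunit that makes the channel impermeable to calcium, differed by −0.10 ± 0.08 (limma SE, n = 3 per group; 95% interval −0.27 to 0.08). With slide as a block it was 0.01, so its direction turned. Its animals ranged from 0.66 to 0.93 over the 3 ages, and the groups overlapped.

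The NMDA receptor needs Grin1, its obligatory subunit, and its properties are set by the Grin2 and Grin3 subunits. Grin1 differed by 0.03 ± 0.07 in aged minus young rats (interval −0.14 to 0.20), Grin2a by 0.01 ± 0.16, Grin2b by −0.01 ± 0.07 and Grin2c by −0.05 ± 0.09. The Grin2b probe was dim, and its aged minus young difference was −0.11 with quantile normalization. Of the 7 subunits, 5 had intervals within 1.5-fold. The exceptions were Grin2d and Grin3b.

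Grin2d encodes the subunit found mainly in the brainstem, midbrain and spinal cord, with slow channel closing. Its level was −0.24, 0.20 and −0.05 in young rats, −0.00, −0.54 and 0.24 in middle-aged rats, and −0.56, −0.35 and −0.27 in aged rats. All 3 aged animals lay below all 3 young ones, while the middle-aged animals spanned both. The difference was −0.37 ± 0.20 (limma, adjusted p = 0.422, interval −0.81 to 0.08), and the arrays of 1 animal were wide apart at this probe, since those of aged replicate 3 gave 0.05 and −0.59. The Grin2d probe has the highest GC content of the set, 81.7%.

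Grin3b, a subunit that lowers the calcium permeability of NMDA receptors and is known from motor neurons, had levels of 1.08, 1.15 and 1.426 in young rats, 1.435, 1.92 and 1.63 in middle-aged rats, and 0.90, 1.67 and 0.70 in aged rats. The middle-aged animals lay above all young ones, the lowest of them by a narrow margin, and the aged animals ranged across both groups. The middle-aged minus young difference was 0.44 ± 0.24 (limma, adjusted p = 0.884), and the aged minus middle-aged one −0.57 ± 0.24 (adjusted p = 0.453). The second was −0.86 without aged replicate 2 and −0.38 without aged replicate 3. Grin3b was the only member of the 35 with no overlap between middle-aged and young rats, where 11.3% of all items had none.

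Of the 5 kainate receptor subunits, the aged minus young difference was negative for 4 (Grik1, Grik2, Grik4 and Grik5) and positive for Grik3, with a median of −0.14. Grik5, a high-affinity subunit that forms channels only with Grik1 to Grik3, had levels of 0.55, 0.68 and 0.63 in young rats, 0.69, 0.73 and 0.38 in middle-aged rats, and 0.56, 0.29 and −0.02 in aged rats. Its lowest values were in 2 aged animals, and the third aged animal lay among the young ones. The difference was −0.35 ± 0.15 (limma, adjusted p = 0.322, interval −0.69 to −0.01). Without aged replicate 3 it was −0.20, and without aged replicate 1 it was −0.49.

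Grik2, a pore-forming kainate subunit, had levels of −1.05, −1.19 and −1.22 in young rats, −1.12, −1.09 and −1.29 in middle-aged rats, and −1.27, −1.31 and −1.31 in aged rats. The aged animals lay below all young ones by a small margin and were close to each other. The difference was −0.14 ± 0.08 (limma, adjusted p = 0.440, interval −0.33 to 0.04), and it was −0.09 without young replicate 1.

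Grid1, the delta receptor, which binds synaptic organisers rather than acting as a glutamate-gated channel, differed by 0.00 ± 0.09 in aged minus young rats (interval −0.21 to 0.21). Its 9 animals spanned 0.22 log2 units.

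Among the metabotropic receptors, Grm5 is the phospholipase-coupled one of group I measured here, Grm2 and Grm3 form group II, and Grm4, Grm6, Grm7 and Grm8 group III. The groups II and III lower cyclic AMP. Their aged minus young differences ran from −0.39 to 0.27, with a median of 0.00. Grm3, which is expressed by astrocytes as well as neurons, had levels of 2.69, 2.59 and 2.72 in young rats, 2.57, 2.73 and 2.70 in middle-aged rats, and 2.84, 2.72 and 2.83 in aged rats. Of the aged animals 2 were above all others, and the third equalled the highest young animal to 2 decimals. The difference was 0.13 ± 0.08 (limma, adjusted p = 0.482).

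Grm6, a receptor known mainly from retinal bipolar cells, gave dim signals of −4.27, −5.10 and −4.63 in young rats, −4.26, −3.75 and −4.36 in middle-aged rats, and −4.35, −4.39 and −4.45 in aged rats. Young replicate 1 lay with the middle-aged animals, so the groups overlapped. The middle-aged minus young difference was 0.55 ± 0.22 (limma, adjusted p = 0.716), and it was 0.33 without young replicate 2, 0.36 without middle-aged replicate 2 and 0.03 with another background correction (normexp). The second Grm6 probe was well above background on 0 of 12 arrays.

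Of the transporters, Slc1a2 (GLT-1) and Slc1a3 (GLAST) are the astrocyte carriers that clear most synaptic glutamate. Slc1a2 had levels of 2.96, 3.03 and 3.09 in young rats, 2.88, 2.92 and 2.96 in middle-aged rats, and 2.88, 2.99 and 2.97 in aged rats. The groups overlapped over a span of 0.21 log2 units, and the aged minus young difference was −0.08 ± 0.07 (limma, adjusted p = 0.634, interval −0.24 to 0.08). Slc1a3 had levels of 4.82, 4.61 and 4.87 in young rats, 4.76, 5.09 and 4.61 in middle-aged rats, and 4.92, 4.92 and 4.92 in aged rats. The aged animals lay above all young ones, while the middle-aged animals spanned both groups and held the highest value of the 9. The aged minus young difference was 0.15 ± 0.12 (limma, adjusted p = 0.601), 0.08 without young replicate 2, 0.08 with slide as a block and 0.04 at the second probe.

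Slc1a1 (EAAC1), the neuronal glutamate carrier, had levels of 0.47, 0.59 and 0.41 in young rats, 0.35, 0.19 and 0.41 in middle-aged rats, and 0.30, 0.37 and 0.41 in aged rats. The highest 2 values were in young rats, and the third young animal lay within the range of the others. The differences were −0.13 ± 0.09 in aged minus young rats (limma, adjusted p = 0.521) and −0.17 ± 0.09 in middle-aged minus young rats (adjusted p = 0.857). They were −0.08 without young replicate 2 and −0.11 without middle-aged replicate 2. Slc1a4 (ASCT1), a carrier of neutral amino acids of the same family, had levels of −2.40, −2.13 and −2.15 in young rats, −2.07, −2.23 and −2.33 in middle-aged rats, and −2.31, −2.48 and −2.45 in aged rats. The aged animals lay in the lower part of the range and overlapped both groups, with an aged minus young difference of −0.19 ± 0.10 (limma, adjusted p = 0.429).

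The 3 vesicular transporters load glutamate into synaptic vesicles. Slc17a6 (VGLUT2), the form that predominates in the brainstem, ranged from 4.17 to 4.79 over the 9 animals and differed by −0.01 ± 0.17 in aged minus young rats (interval −0.40 to 0.38). Slc17a8 (VGLUT3), which is found also in some neurons that release other transmitters, was near background, with levels of −5.31, −5.62 and −5.22 in young rats, −5.92, −5.51 and −6.49 in middle-aged rats, and −5.21, −5.89 and −5.80 in aged rats. These values overlapped between the groups, and the 2 arrays of middle-aged replicate 3 differed by 0.76. The differences were −0.25 ± 0.26 in aged minus young rats (limma, adjusted p = 0.689) and −0.59 ± 0.26 in middle-aged minus young rats (adjusted p = 0.792). The first was −0.46 without aged replicate 1 and −0.12 without aged replicate 2, and the second −0.33 without middle-aged replicate 3.

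The scaffold proteins held the smallest p of the set. Homer3, a postsynaptic protein that links group I metabotropic receptors to internal calcium stores, had levels of −2.42, −2.51 and −2.40 in young rats, −2.77, −2.30 and −2.47 in middle-aged rats, and −2.17, −2.17 and −1.90 in aged rats. All 3 aged animals lay above all 6 younger ones. The aged minus young difference was 0.36 ± 0.13, or 1.29-fold (limma, adjusted p = 0.232, interval 0.07 to 0.65), and the aged minus middle-aged one was 0.43 ± 0.13 (adjusted p = 0.329). The aged minus young difference was 0.27 without aged replicate 3, 0.56 within the only slide that held both ages, and 0.23 with the normexp background correction.

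Homer1, which includes a short form induced by neuronal activity, had levels of −1.10, −1.23 and −1.002 in young rats, −1.04, −1.11 and −1.06 in middle-aged rats, and −1.20, −1.13 and −1.30 in aged rats. The aged animals lay below all middle-aged ones and overlapped the young ones, with differences of −0.14 ± 0.08 in aged minus middle-aged rats (limma, adjusted p = 0.563) and −0.10 ± 0.08 in aged minus young rats (adjusted p = 0.619). Homer2 was the steadiest gene of the 35, with 9 animals within 0.13 log2 units and a difference of −0.03 ± 0.07.

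Groups that do not overlap were few. In aged against young rats they were Homer3 and Slc1a3 upward and Grik2 and Grin2d downward, 4 of 35, where 22.7% of all items had none. In aged against middle-aged rats they were Homer3 upward and Homer1 downward, 2 of 35, where the share of all items was 17.0%. Neither count was above its background.

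**Figure D2:**
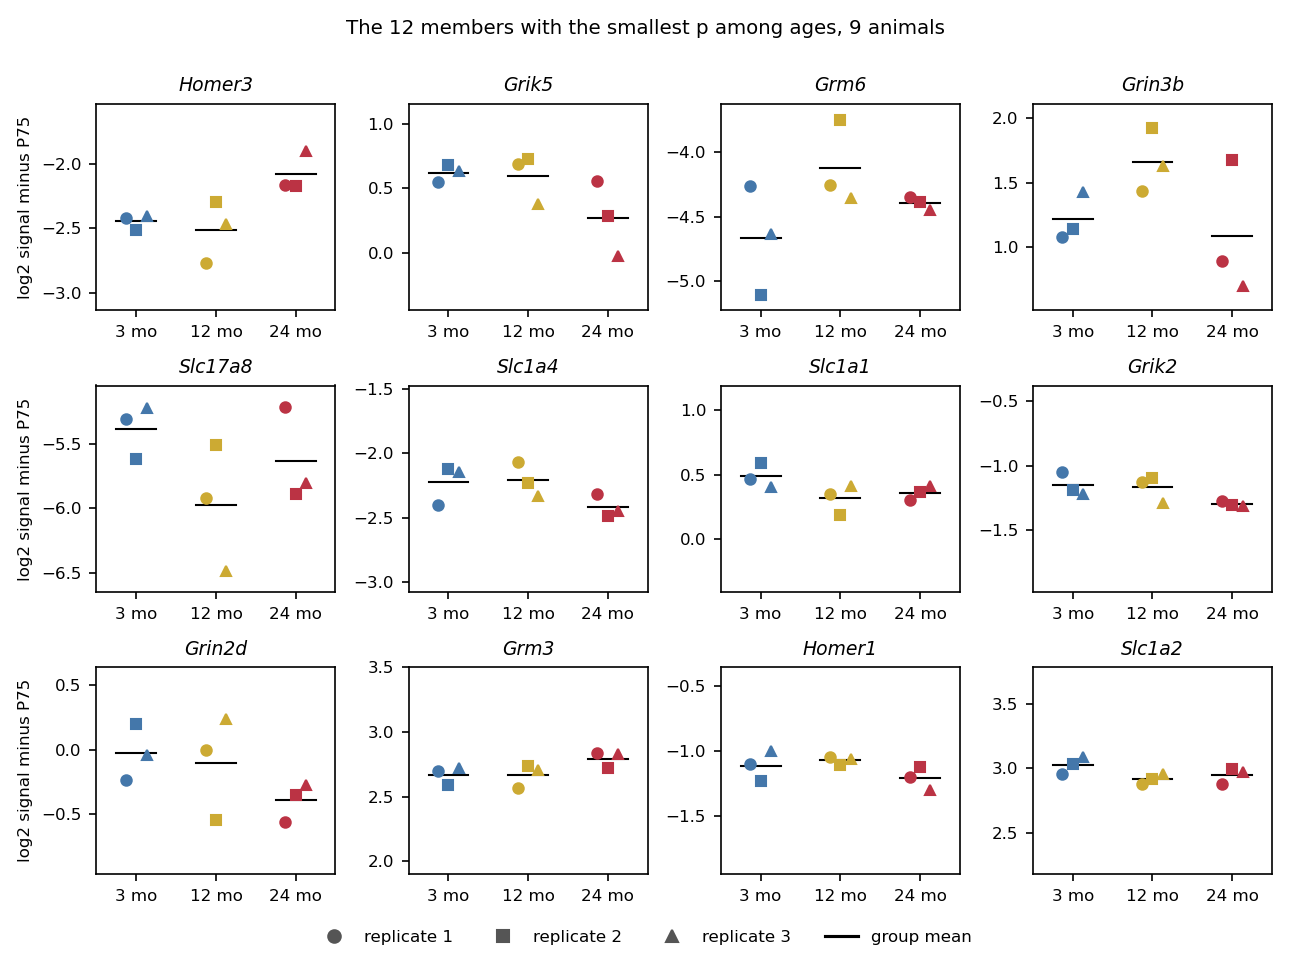
Level of the 12 genes with the smallest p in the F test over ages, each point 1 animal (log2 processed signal minus the array's 75th percentile, P75), marker shape its replicate number and bar the group mean. Every panel spans 1.6 log2 units. The aged animals lie apart from all younger ones in the panel of Homer3.

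Several members varied widely between animals of the same age. The standard deviation within groups, pooled over the 3 ages, had a median of 0.17 over the 35 genes, against 0.14 over all items. It was highest for Slc17a7 (1.72, higher than in 99.96% of all items), Grm8 (0.65, 98.6%) and Grik1 (0.52, 97.5%). The genes of this and the next 3 paragraphs were singled out after their values were seen.

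Slc17a7 (VGLUT1), the vesicular transporter that predominates in cortex and cerebellum, had levels of −4.47, −2.32 and −6.56 in young rats, −5.04, −4.59 and −3.10 in middle-aged rats, and −6.52, −6.56 and −3.40 in aged rats. Each age held 1 animal far above the others, and the values of the rest reached down to the background of the array. The aged minus young difference was −1.04 ± 1.17 (limma, adjusted p = 0.714), and it was 0.02 without young replicate 2, −2.10 without young replicate 3, −0.53 without aged replicate 1, −0.51 without aged replicate 2 and −2.09 without aged replicate 3. Within the slide that held both ages, with replicate 3 of each, it was 3.00.

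Grm8, a presynaptic metabotropic receptor of group III, showed the same order of animals within each age at a bright probe. Its levels were 1.23, 1.86 and 0.54 in young rats, 0.89, 1.03 and 1.96 in middle-aged rats, and 0.67, 0.20 and 1.57 in aged rats. The second probe gave 0.94, 1.68 and 0.41 in young rats, 0.70, 0.77 and 1.81 in middle-aged rats, and 0.53, 0.08 and 1.40 in aged rats, so both probes placed the same animal of each age highest. The aged minus young difference was −0.39 ± 0.45 (limma, adjusted p = 0.716), but −0.07 without young replicate 2, −0.73 without young replicate 3, −0.09 without aged replicate 2, −0.77 without aged replicate 3, and 1.03 within the slide that held both ages.

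The animals with the highest Slc17a7 and Grm8 (replicate 2 of the young, replicate 3 of the middle-aged and replicate 3 of the aged rats) were those apart on the second principal component. They also held the 3 highest values of Grik1 (−0.91, −1.03 and −1.31, against −2.12 to −1.63 in the other 6), Grm2 (1.08, 0.88 and 1.12, against 0.53 to 0.68), Slc17a6 (4.56, 4.55 and 4.79, against 4.17 to 4.37) and Gria3 (0.18, 0.16 and 0.45, against −0.18 to 0.14). They held the 3 lowest values of Grm7 at the probe used. At its second probe they did not, since aged replicate 2 (−2.15) lay below young replicate 2 (−2.11) and middle-aged replicate 3 (−2.09). Thus 6 of 35 members had their 3 highest values in these animals, where 4.5% of all items did so, and 1 of 35 its 3 lowest, where 1.86% did. The 6 include Slc17a7 and Grm8, by which these animals were picked out. The component, too, was computed from the same values, members included. The counts describe these animals and are no test.

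Some marker genes of position and of neurons moved with them. The hindbrain position genes Hoxa5 (3.56, 3.31 and 2.98, against 1.40 to 2.73), Hoxb3 and Hoxc4 were highest in the same 3 animals. The cholinergic genes Isl1 (−4.87, −3.50 and −4.19, against −3.46 to −1.92) and Slc5a7, the choline carrier, were lowest there. Of the 6 position genes tested, Hoxa3 and Hoxd4 did not follow this order, and of the 4 cholinergic genes Chat and Slc18a3 did not. On other lists, the neuronal markers Rbfox3 and Nefh, the C1 gene Phox2a and the cerebellum or forebrain marker Neurod6 were also highest in these animals. Gad1, of the GABA and glycine neurons, was lowest there. The other tested genes of those lists did not follow this order. The summed level of a list is the log2 of its genes' added unlogged signals, across probes that share no scale. Its brightest probes set most of it, here Hoxa4 and Hoxa5 for position and Slc18a3 for the cholinergic genes. The summed level of the position genes ranged from 3.47 to 4.53 log2 units in young, 3.62 to 4.48 in middle-aged and 3.33 to 4.21 in aged rats, and that of the cholinergic genes from 2.41 to 4.06, 3.61 to 4.91 and 2.76 to 4.75 in the same order of ages. What part these marker genes' differences have in the members' values was not tested, and in bulk tissue fewer cells of a type and less RNA per cell cannot be told apart. Leaving out all 3 animals together left 0 of 35 members called in each comparison. Of the 25445 items, 55 were then called in aged against young, 3 in middle-aged against young and 0 in aged against middle-aged rats. With so few calls over all items, the 0 of 35 says little about the members.

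**Figure D3:**
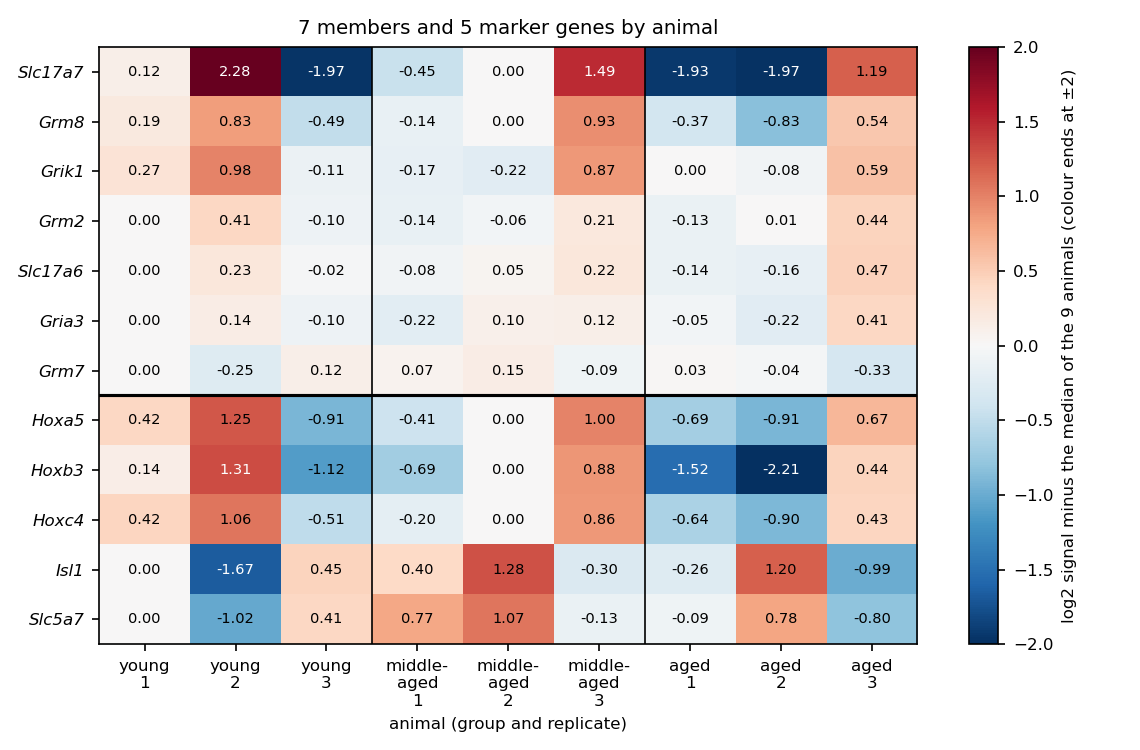
Level in each of the 9 animals minus the median of the 9, on the log2 scale, for 7 glutamate genes (above the line) and 5 marker genes (below it). Columns run by age and replicate. The second young, the third middle-aged and the third aged column are high for the first 6 glutamate genes and the Hox genes, and low for Grm7, Isl1 and Slc5a7.

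Dlg4, which encodes PSD-95, the main scaffold of excitatory synapses, stood out in 1 animal. Its level was −0.35 in middle-aged replicate 1, against 0.48 to 0.85 in the other 8 animals, and the second probe of the gene gave −2.39 in that animal, against −1.57 to −1.08. Both probes thus marked the same animal. The middle-aged minus young difference was −0.21 ± 0.26 (limma, adjusted p = 0.990), 0.15 without that animal and −0.45 without middle-aged replicate 2. In aged minus young rats Dlg4 differed by 0.17 ± 0.26 (adjusted p = 0.806), and −0.04 with slide as a block.

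Of the 35 genes, 11 had 2 probes, and for 10 both were kept. In aged minus young rats the 2 probes gave the same sign for 9 of the 10, Grin2a being the exception at 0.01 and −0.07. The widest gap was that of Homer1, whose second probe, built on another record, differed by −0.31 against −0.10 at the probe used. Of the 45 kept probes, 0 passed in any comparison, also when each probe was its own item. Among the 12 probes printed in 10 copies per array, the median standard deviation of the copies was 0.03 (Grin1) to 0.23 (Grm5).

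**Figure D4:**
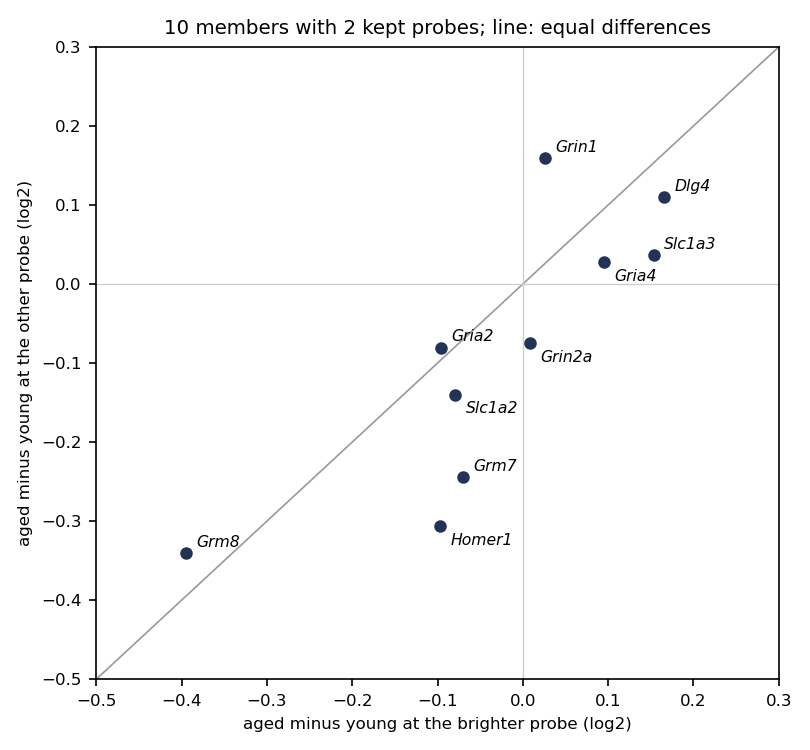
Aged minus young difference (log2, n = 3 animals per group) at the brighter probe (horizontal) and the other probe (vertical) for the 10 members with 2 kept probes. The line marks equal differences, and Grm8 lies near it at −0.39 and −0.34.

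Slide was partly shared with age. Slide 1 held 4 arrays of young and middle-aged rats, slide 2 held 4 of middle-aged and aged rats, and slide 3 held 4 arrays of replicate 3 of all ages. With slide as a block on the 12 arrays and the animal as a random block, 0 of 35 members passed in any comparison. In this fit 320 of the 25445 items passed in aged against young, 33 in middle-aged against young and 1 in aged against middle-aged rats. The aged minus young difference was then 0.33 for Homer3, −0.33 for Grik5, −0.36 for Grin2d, −0.17 for Grik2 and −0.94 for Slc17a7. Other members moved more. In aged minus young rats Grik3 was at 0.72 with slide as a block, against 0.11 without it, Slc17a8 at −0.65, against −0.25, Grm7 at −0.26, against −0.07, Grin2c at −0.20, against −0.05, Grin3b at −0.27, against −0.13, and Slc1a2 at −0.19, against −0.08. Grik1 was at −0.02, against −0.21. In middle-aged minus young rats Grik3 was at 0.53, against 0.12, and Slc17a8 at −0.91, against −0.59. The direction turned with the block for 7 of 35 members in aged minus young rats, Gria2 and Dlg4 among them, for 11 in middle-aged minus young rats and for 2 in aged minus middle-aged rats.

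The wider glutamate system was described through 51 tested genes on 4 lists. None of these 51 passed the limma test at an adjusted p under 0.05 in any comparison. Of all items 2.04% did so in aged against young, 0.2% in middle-aged against young and 0.0118% in aged against middle-aged rats. At an unadjusted limma p under 0.05 there were 3 in aged against young rats, where 15.2% of all items were. In middle-aged against young rats there were 3 (6.35% of all items), and in aged against middle-aged rats 1 (10.7%). The lists' medians in aged minus young rats were 0.02 for 6 other receptors and transporters, −0.07 for 9 auxiliary subunits of AMPA and kainate receptors, −0.03 for 24 scaffold and trafficking genes and −0.12 for 12 genes of glutamate synthesis and the glutamine cycle, against 0.03 over all items.

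Cell type markers were read in the same fit, in which 2.04% of all items passed in aged against young rats. In the other comparisons 0.2% (middle-aged against young) and 0.0118% (aged against middle-aged) did so. Of 12 neuronal markers 0 passed in any comparison, with a median aged minus young difference of −0.10. Of 9 astrocyte markers 0 passed, with a median of −0.01. This astrocyte median covers differences in opposite directions. Gfap differed by 0.92 in aged minus young rats, with levels of 2.06 to 2.68 in aged and 1.28 to 1.76 in young rats. Aldh1l1 differed by −0.54, with levels of 1.11 to 1.40 in aged and 1.62 to 2.03 in young rats. The other astrocyte markers tested had differences of −0.13 to 0.12. Of 9 microglial markers 6 rose in aged against young rats (Aif1, Cx3cr1, P2ry12, C1qa, Trem2 and Tyrobp). In middle-aged against young rats 2 rose (Trem2 and Tyrobp), and in aged against middle-aged rats 0 passed. The median of this list per animal, with the mean of the young rats as 0, was −0.08 to 0.10 in young, 0.44 to 0.66 in middle-aged and 0.80 to 1.07 in aged rats. The summed level of the 9 markers was 4.53 to 4.71 in young, 5.22 to 5.62 in middle-aged and 5.70 to 5.96 in aged rats. Of 8 oligodendrocyte markers 0 passed in any comparison, with a median aged minus young difference of −0.39. Their median per animal was −0.03 to 0.06 in young, −0.40 to −0.21 in middle-aged and −0.48 to −0.30 in aged rats, so all older animals lay below all young ones, and their summed level was 8.04 to 8.18, 7.73 to 7.98 and 7.46 to 7.86 in the same order of ages. Of 3 red blood cell markers 0 passed, with a median difference of 0.89 and a summed level of 6.11 to 6.63, 6.20 to 6.28 and 6.77 to 7.30. What part these shifts have in the members' levels was not tested.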

How the data were processed

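RNA of 9 animals was read on 12 arrays. The authors' deposited array files hold fluorescence intensity, background-subtracted and detrended per the file headers, made with Agilent Feature Extraction 9.5.1.1 per the submitters' processing notes; their flags are 0 or 1 per spot. The authors' deposited series matrix holds a score with mean 0 and SD 1 within each array, whose log base and feature selection are unknown; it served as an alternative only. Outlier spots were left out, log2 signals of a probe's spots were averaged, the 75th percentile of each array's non-control probes was taken off, and both arrays of an animal were averaged. A probe was kept where some group had it well above background on all of its arrays (29797 of 41012), the brighter probe standing for a gene (25445 items). limma 3.58.1 (R 4.3.3) fitted the means of the 3 ages over 9 animals, and two-sided p-values of the 3 contrasts were adjusted (Benjamini-Hochberg, all items, threshold 0.05). "Rose" is used only of passed genes. Positions are on rn3 per the file headers. Names came from the files, updated through RefSeq. The fit was tested on simulated data.

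Values in every animal are given for members that passed or, up to 12, had the smallest F-test p, and for genes said to be singled out. The members and lists were chosen with earlier results of these data known. A gene of the scaffold and trafficking list and a marker gene are not reported here and were left out of the lists after the fit, so the lists' counts do not cover them. Same-numbered animals of different ages did not deviate together (correlations of −0.41 to 0.37), so the replicate numbers were not taken as pairs. The labels call the animals biological replicates. Alternatives covered background correction, scaling, filters, items, slide, arrays, moderation and left-out animals.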

Additional observations from a re-analysis of the deposited data

How the results depend on the processing

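The counts of members called stayed at 0 of 35 under all 25 alternatives with a test in each of the 3 comparisons, and under all 24 in the F test, which has no value when only the groups compared are fitted. The lowest adjusted p of any member under an alternative was 0.151 in aged against young rats, 0.459 in middle-aged against young rats, 0.228 in aged against middle-aged rats and 0.157 in the F test, each with 1 animal left out. With each animal left out in turn the counts stayed at 0. The fit with the replicate block also called 0 members in each comparison. The median difference of the members ranged over the alternatives from −0.08 to 0.04 in aged minus young, from −0.05 to 0.06 in middle-aged minus young and from −0.09 to 0.02 in aged minus middle-aged rats, series matrix values (in SD units) included. Of 2686 single differences recomputed, 112 moved by more than the spread between replicates, 64 of them within slide 3, where each age is 1 animal. Comparisons within a slide gave values and no test. Over all items the calls in aged against young rats numbered 520, and 623 with the animal as a random block, 320 with slide as a block, 310 with normexp, 288 with no filter, 356 with the replicate block, 271 to 510 with 1 animal left out and 55 with 3 left out. Dim probes (Slc17a7, Slc17a8, Grik3, Grm5, Grm6, Grin2b) limit what can be read from those genes.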
